A study of Mus musculus with 12 samples.

Results

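The cecum of mice 72 h after cauterization was compared directly with the cecum 3 h after it, that is, the latest time of the study against the earliest. The 6 samples, 3 for each time, were taken by their treatment label from the 12 of the series. All mice were C57BL/6, were labelled as male and carried no other genotype or treatment, and their age was not given. In both groups the cecum was exposed through a midline incision and burned briefly with bipolar forceps, an injury after which fibrous bands form on the serosa. The 3 sham-operated ceca, which the methods place at 0 h, are a reference that both times share. No sham cecum was taken at 3 h or at 72 h, so cauterization and the time since the operation cannot be told apart.

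A burn of a hollow organ sets off an alarm phase in which chaperones, immediate early transcription factors and inflammatory cytokines are induced and neutrophils enter the wound. Monocytes and macrophages follow, clear debris and release repair signals, while fibroblasts and the mesothelial cells of the serosa lay down, process and crosslink collagen. On peritoneal surfaces such repair can tie neighbouring organs together, which is the postoperative adhesion. The comparison asks which parts of the early response had receded by 72 h and which genes of repair stood higher by then.

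Total RNA of cecal tissue was labelled with Cy3 and hybridised to 1-colour mouse arrays, 1 sample per array. Each value is the log2 of a probe's background-corrected intensity minus the 75th percentile of that array, and a gene is represented by its brightest probe, which gave 37074 genes from 56605 probes. The 75th percentile of intensity was 179.5 to 190.1 on the 3 h arrays, 242.7 to 260.8 on the 72 h arrays and 193.6 to 214.2 on the sham arrays. Between 60.2% and 65.2% of probes were well above background on an array, and no probe was saturated. Pearson correlations between replicates across probes, which are not independent, were 0.985 to 0.989 at 3 h and 0.985 to 0.991 at 72 h. The number of arrays limits the precision, since 3 against 3 cannot give an exact permutation p under 0.1 for any single value.

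Sex-linked genes did not read as they would in males, the sex given for the mice. Xist, which is transcribed from the inactive X chromosome of females, was well above background on all 9 sham, 3 h and 72 h arrays, at -0.55, -0.45 and -0.50 on the 3 h arrays and -0.47, -0.43 and -0.62 on the 72 h arrays. The Y-linked Ddx3y and Eif2s3y were well above background on 0 of these arrays and Uty on 1 sham array, while the brightest probe of Kdm5d was above background on all 9. The 5 sex check genes had a median difference of -0.19 between 72 h and 3 h (-0.60 with slide as a block), whose sign turned under quantile normalization, under the filter on dim probes and without 72 h replicate 3, and 0 higher and 0 lower calls. All groups showed this, so they are named by time only.

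Group and slide coincide. Slide 1 held the sham and 3 h arrays and 2 of the 12 h arrays, and slide 2 held the third 12 h array and all 72 h arrays. No slide held both a 3 h and a 72 h array, so no difference within a slide exists, and a slide term can be separated from time only through the 12 h arrays. Differences were fitted with limma over all 12 arrays without a slide term, and a gene was called at a fold above 2 with an adjusted p below 0.05 over all probes. A fit with slide as a fixed block is named slide-blocked below. It called 1152 genes in place of 4339, of which 847 were called the same way in both fits, and its standard errors were 1.74 times as large.

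At 72 h, 4339 of 37074 genes (11.7%) differed from 3 h, 2296 of them higher (6.19%) and 2043 lower (5.51%). Against sham, 2732 genes (7.37%) were called at 3 h, 1209 higher (3.26%) and 1523 lower (4.11%), and 3282 (8.85%) at 72 h, 1687 higher (4.55%) and 1595 lower (4.3%). The 3 h and 72 h values against sham use the same 3 sham arrays, which lie on the slide of the 3 h arrays. Differences of 72 h from sham therefore also cross slides, those of 3 h do not, and no slide-blocked fit was made against sham. Of the 4339 genes, 2818 were well above background on all 6 arrays. A further 749 were so on all 3 arrays of only 1 group and have at most a bound. The other 772 were so on all 3 arrays of neither group, though single arrays could be above background. Of the 4339, 4247 had groups that did not overlap, against 57.1% of all genes. Of 329 list members with more than 1 measured probe, 57 had called and uncalled probes and 0 had probes called in opposite directions. Of the calls, 2799 held in every fit that left out 1 of the 6 arrays. The median difference over all genes was -0.26 (log2, 72 h minus 3 h), and quantile normalization moved it to -0.01 and a 75th percentile over probes above background to -0.13. Under that last scaling 65.2% of the called genes were higher at 72 h, in place of 52.9%. List medians below are to be read against -0.26, or against -0.14 for the 21200 genes well above background on all 6 arrays. Counts of calls in a list are to be read against 11.7%, and counts against sham against the shares above. The lists of lymphoid chemokines (8.33%), enteric neurons (9.09%), mast cells (10%), interferon gamma (10.5%), dendritic cells (13.3%) and the IL-1 family (14.3%) were near 11.7%. Their counts do not set them apart.

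The 2296 higher genes had different calls against sham, where only the 72 h side crosses slides and not called does not mean unchanged. Among them, 826 were called higher than sham at 72 h and not called at 3 h, 594 were called lower than sham at 3 h and not called at 72 h, 98 were higher than sham at both times, and 50 were lower than sham at 3 h and higher at 72 h. Among the 2043 lower genes, 423 were higher than sham at 3 h and not called at 72 h, 741 were lower than sham at 72 h and not called at 3 h, and 57 were above sham at both times. A further 715 higher and 788 lower genes were called at neither time against sham. Differences above 8-fold between measured groups were found for 64 higher and 43 lower genes.

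**Figure D1:**
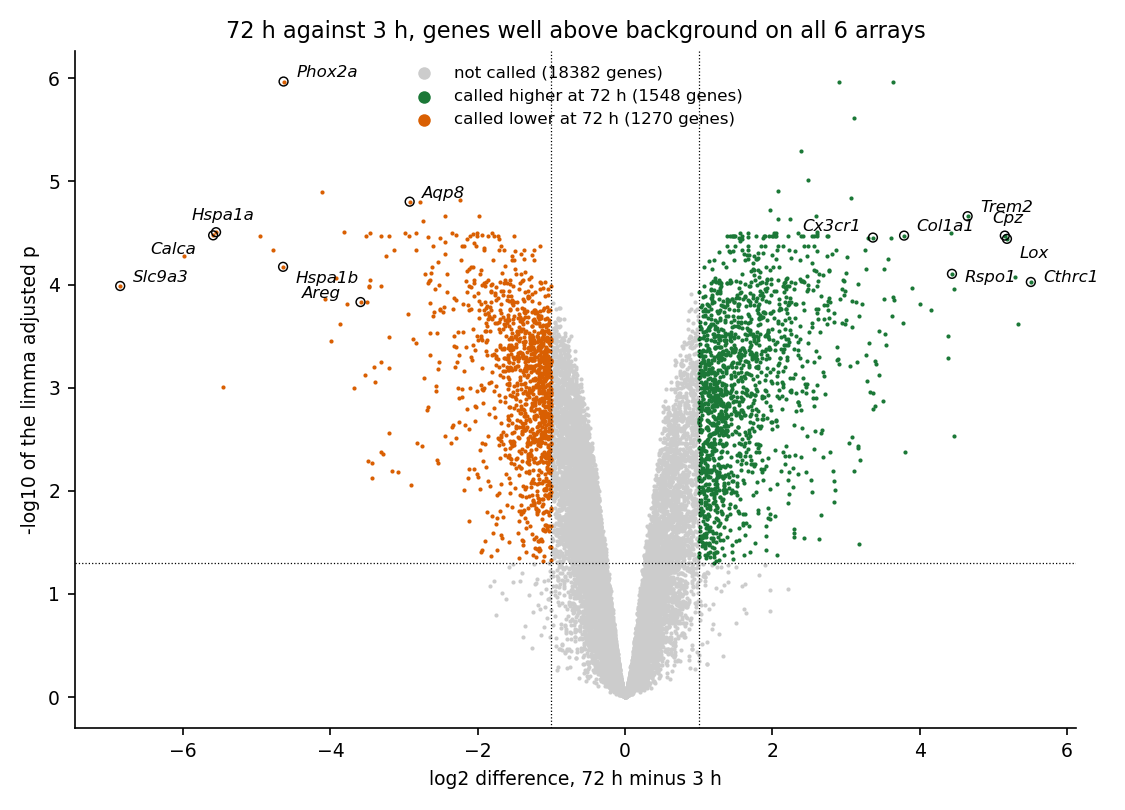
Each point is a gene well above background on all 6 arrays, placed by its log2 difference between 72 h and 3 h (x axis) and by -log10 of its limma adjusted p (y axis), with dotted lines at the thresholds. The 1548 genes called higher at 72 h are green and the 1270 called lower are orange, and Cthrc1 (5.51) and Slc9a3 (-6.86) lie farthest out on each side.

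The largest measured rise was that of a fibroblast gene. Cthrc1, a secreted protein of activated fibroblasts (probe at chr15:38918272-38918331, mm9), read -3.85, -3.50 and -4.20 on the 3 h arrays and 3.02, 1.24 and 0.73 on the 72 h arrays, with -3.34, -3.22 and -3.55 in sham. All 72 h arrays lay above all others, and the difference was 5.51 ± 0.50 (SE, limma adjusted p = 9.44e-05, slide-blocked 5.11). Lox, the enzyme that crosslinks collagen and elastin, read -1.94, -1.75 and -1.66 at 3 h and 4.42, 2.97 and 2.83 at 72 h, a difference of 5.19 ± 0.38 (adjusted p = 3.6e-05, slide-blocked 4.69). Trem2, a lipid-sensing receptor of tissue macrophages, read -2.08, -1.82 and -2.16 at 3 h and 3.36, 2.42 and 2.13 at 72 h, a difference of 4.65 ± 0.28 (adjusted p = 2.17e-05). For both genes the 3 h and 72 h arrays were far apart, and 72 h replicate 1 was the highest array, as it was for Cthrc1.

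Cpz, a carboxypeptidase that binds Wnt proteins, read -3.62, -3.94 and -3.97 at 3 h and 2.07, 1.57 and 0.31 at 72 h, did not overlap and rose by 5.16 ± 0.36 (limma adjusted p = 3.35e-05). Rspo1, a Wnt amplifier made by mesothelium, rose by 4.44. Sval1 rose by 5.29, Fam64a by 4.43, the imprinted Mest by 4.16, Lgi2 by 4.0 and the growth arrest gene Gas1 by 3.90. The imprinted RNA H19, the Wnt antagonist Sfrp2, the carboxypeptidase-like Cpxm1 and the mesothelial transcription factor Wt1 had differences of 5.34, 4.46, 4.38 and 4.38, and their calls were lost in the slide-blocked fit, at 3.53, 4.78, 4.27 and 3.02. The other 11 of the 15 largest rises were called in both fits.

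The largest measured fall was that of a sodium transporter. Slc9a3, the apical sodium-proton exchanger of absorptive cells (probe at chr13:74306830-74306889, mm9), read 3.71, 4.29 and 4.46 in sham, 5.63, 5.09 and 5.23 at 3 h and -2.12, -2.78 and 0.28 at 72 h. The 72 h arrays lay below every sham and 3 h array, and the difference was -6.86 ± 0.64 (limma adjusted p = 0.000103, slide-blocked -6.32). Phox2a, a transcription factor of autonomic neurons, stood out at 3 h only, with -1.43, -1.39 and -1.38 in sham, 3.08, 3.09 and 3.47 at 3 h and -1.69, -1.52 and -1.07 at 72 h, a difference of -4.64 ± 0.17 (adjusted p = 1.07e-06). Calca, which encodes the sensory neuropeptide CGRP, read 1.76, 2.03 and 2.56 at 3 h and -3.15, -3.76 and -3.53 at 72 h, a difference of -5.59. Both genes had 3 h arrays that did not reach down to any sham or 72 h array.

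Krt36, a hair-type keratin, read 4.26, 4.16 and 4.37 at 3 h and -2.17, -1.96 and -1.04 at 72 h, a difference of -5.99. Slc10a2, the apical bile acid transporter of the ileum, and Slc26a1, a sulfate transporter, differed by -4.96 and -4.11, and Slc37a2, a sugar-phosphate transporter, by -3.82. The transcripts 9130221J18Rik and Gm32677, whose roles are not known, fell by 4.78 and 4.08. The cornified envelope gene Sprr1a differed by -3.92. The calls of the cornified envelope gene Sprr2h (-5.46), of Ly6g6c (-3.99) and of the interferon-induced Ifit1 (-3.87) were lost in the slide-blocked fit, at -4.57, -3.38 and -3.34, and the other 12 of the 15 largest falls were called in both.

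Some genes crossed the background and have only a bound, taken against the higher of the array's detection floor and the dim probe's own signal. The bound compares group means and allows for dim signal, not for the spread between arrays, so "at least" is no guaranteed minimum. Values given for such genes from other fits are fitted differences, not measured sizes. Cyp1b1, an aryl hydrocarbon receptor target that oxidises steroids, was below background on all 3 h arrays, read 2.41, 1.33 and 0.73 at 72 h, and was at least 74.1-fold higher (limma adjusted p = 4.61e-05). The kininogen gene Kng1 was at least 44.5-fold higher with 0 of 3 arrays above background at 3 h, Orm2, an acute phase glycoprotein, at least 15.7-fold with 1 of 3, and the homeobox gene Meox2 at least 14.6-fold with 1 of 3. These 3 calls were lost with slide as a block. On the other side, Il22, an epithelial defence cytokine, read 1.1, 3.01 and 3.26 at 3 h and -2.28, -4.08 and -5.76 at 72 h, where 2 of 3 arrays were above background, and was at least 78.5-fold lower. Dpcr1, at least 19.6-fold lower, and the galactolipid enzyme Ugt8a, at least 13.7-fold lower, were above background on 0 of the 72 h arrays, the small membrane protein Lsmem1 (at least 15.9-fold) on 1 and the magnesium channel Trpm6 (at least 19.0-fold) on 2. Among the lower genes only the call of Il22 was lost with slide as a block (slide-blocked -6.79, adjusted p = 0.0905).

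The heat shock chaperones, which refold damaged proteins, were in part above sham at 3 h and no longer at 72 h. Of 19 chaperones, 8 fell and 0 rose between 3 h and 72 h, with a median of -0.56 (-0.63 slide-blocked), and 9 were above sham at 3 h and 0 at 72 h. Hspa1a, an inducible HSP70 (probe at chr17:35106766-35106825, mm9), read 0.98, 1.14 and 1.45 in sham, 7.35, 7.46 and 7.37 at 3 h and 2.33, 1.11 and 2.08 at 72 h. The 3 h arrays were within a narrow band far above the rest, and the difference was -5.55 ± 0.35 (limma adjusted p = 3.1e-05, slide-blocked -4.43). Its neighbour Hspa1b, which encodes nearly the same protein and whose probe may share signal, read 5.95, 5.99 and 5.90 at 3 h and 2.13, 0.63 and 1.16 at 72 h, a difference of -4.64. Hsph1, an HSP110 partner, and Hsp90aa1, the inducible HSP90, differed by -1.78 and -1.52, both lost with slide as a block, and the small chaperone Hspb1 by -1.18. Of the 8 calls, 7 held with any 1 array left out and 3 in the slide-blocked fit. With the mean of all its probes Hsp90aa1 was not called (-0.74).

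Immediate early transcription factors, which answer injury within minutes to hours, were in part lower at 72 h and in part still above sham. Of 26 genes, 11 fell and 0 rose, with a median of -0.87 (-0.83 with dim genes at their bound, -0.47 slide-blocked), and 19 were above sham at 3 h and 12 at 72 h. On the single arrays the list median against sham was 1.42, 1.70 and 1.68 at 3 h and 0.86, 0.64 and 0.87 at 72 h, and the groups did not overlap. Fosl1, the FRA1 subunit of AP-1, was not well above background in sham, read 0.53, 0.43 and 0.72 at 3 h and -2.21, -2.5 and -1.57 at 72 h, and differed by -2.65 ± 0.27 (limma adjusted p = 0.000150). Maff, a small MAF protein, differed by -1.82, and the proto-oncogene Myc by -1.58 with 1.89 against sham at 3 h and 0.31 at 72 h. Egr1, the zinc finger factor, was 2.98 above sham at 3 h and 1.52 at 72 h, and its fall of 1.46 was lost with slide as a block (slide-blocked -0.50). Of the 11 calls, 10 held with any 1 array left out and 3 held slide-blocked.

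Genes induced by glucocorticoids, the hormones of surgical stress, had the list median -1.08 (-0.77 slide-blocked), with 7 of 13 lower and 1 higher. Mt2, a metal-binding stress protein, read 8.42, 8.68 and 8.67 at 3 h and 6.51, 6.19 and 6.62 at 72 h, and Fkbp5, a chaperone of the glucocorticoid receptor, read 4.64, 4.78 and 4.96 and 2.43, 2.66 and 3.15. Neither gene had overlapping groups, and the differences were -2.15 ± 0.16 and -2.05 ± 0.19 (limma adjusted p = 3.6e-05 and 9.58e-05). Mt1 fell by 1.79 and the cell cycle inhibitor Cdkn1a by 1.68. Angptl4, a lipase inhibitor that low oxygen also induces, went against the list at 1.15, a call lost without 3 h replicate 2 (1.14), 3 h replicate 3 (1.16) or 72 h replicate 1 (0.72) and with slide as a block (0.89). Of the 8 calls, 6 held with any 1 array left out and 4 slide-blocked. With the mean of all its probes Cdkn1a was not called (-0.13), so its fall rests on the brightest probe.

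The unfolded protein and integrated stress response had 0 calls among 22 genes and a median of -0.11, which turned positive under quantile normalization, under the 75th percentile over probes above background, without 3 h replicate 1 and with slide as a block (0.17). Chac1, a glutathione-degrading enzyme, had the largest difference there at -1.18 and was not called. Among 14 hypoxia and glycolysis genes 4 were lower and 1 higher (median -0.50, slide-blocked -0.24), with hexokinase Hk2 at -2.16, Ndrg1 at -1.58, the carbonic anhydrase Car9 at -1.44 and the vasodilator peptide Adm at -1.13, the last not called without 3 h replicate 1 (-1.0). Bnip3, a mitophagy receptor, rose by 1.12, which was not called without 72 h replicate 3 (0.72). None of the 5 was called with slide as a block. The median of the hypoxia and glycolysis list also moved under quantile normalization and reached -0.18 across the alternatives. In the oxidative stress list 2 of 12 genes were lower (median -0.54, slide-blocked -0.37), the glutathione enzyme Gclc at -1.72 and Srxn1 at -1.32, neither called with slide as a block, while Hmox1, the heme-degrading enzyme, was 2.91 above sham at 3 h, 3.76 at 72 h and not called between them (0.85). Adm (-0.92) was not called under normexp, and Srxn1 (-0.93) was not called under quantile normalization.

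Of 16 subunits and feedback inhibitors of NF-kB, the transcription factor of inflammation, 7 fell and 0 rose, with a median of -0.99 (-0.86 slide-blocked), and 12 were above sham at 3 h and 8 at 72 h. Tnip3, an A20-binding inhibitor, read -3.48, -3.10 and -2.47 in sham, 1.63, 1.54 and 1.66 at 3 h and -1.73, -1.61 and -0.45 at 72 h. The 3 groups did not overlap, and the difference of -2.88 ± 0.35 (limma adjusted p = 0.000338) lost its call with slide as a block (-2.61). Bcl3, an atypical IkB protein, read 6.15, 6.18 and 6.61 at 3 h and 4.58, 4.44 and 4.74 at 72 h, a difference of -1.73, and was the member called slide-blocked. Only 2 of the 7 calls, which lie near the 2-fold threshold apart from Tnip3 and Bcl3, held with any 1 array left out.

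The neutrophil-attracting CXC chemokines stayed high. Of 9 ligands and receptors 8 were above sham at 3 h and 8 at 72 h, with list medians against sham of 7.03 and 7.16 (5.94 and 6.97 with dim genes at their bound). The difference between the times had a median of 0.66 (1.41 slide-blocked), with 2 calls higher and 1 lower. Cxcl2, a ligand of CXCR2, was below background in sham, read 2.62, 3.76 and 3.18 at 3 h and 2.78, 2.61 and 3.89 at 72 h, overlapped between the times and was at least 295-fold and 278-fold above sham. Cxcl5 read 3.42, 3.69 and 3.88 at 3 h and 4.99, 4.14 and 4.06 at 72 h, a difference of 0.73 that was not called. Cxcl1 read 5.19, 5.33 and 5.60 at 3 h and 4.19, 3.64 and 4.03 at 72 h, and its call at -1.42 was lost under quantile normalization (-1.04), without 3 h replicate 3 (-1.30) and with slide as a block (-0.48). The receptor Cxcr2, which was below background in sham, differed by 1.03 with overlapping groups and was not called, and Cxcr1 was at least 4.80-fold higher, with 1 of 3 arrays above background at 3 h. Ppbp, a platelet chemokine, was higher by 1.14 (slide-blocked 1.90), a call lost without 3 h replicate 2 (1.0) or 3 h replicate 3 (0.98), and none of the 3 calls held slide-blocked. Cxcr1 (0.44) and Ppbp (0.65) were not called under normexp.

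Neutrophil markers had calls in both directions. Of 23 granule and surface genes 15 were above sham at 3 h and 17 at 72 h, and between the times 5 were higher and 2 lower (median 0.54, slide-blocked 0.53). Ly6g, the surface protein used to stain neutrophils, read -0.26, 1.11 and 2.52 in sham, 4.71, 4.54 and 4.95 at 3 h and 0.84, 0.64 and 1.66 at 72 h. Its 72 h arrays lay among the sham arrays and below all 3 h arrays, a difference of -3.69 ± 0.55 (limma adjusted p = 0.00101), though with slide as a block the call was lost (-3.76). Stfa2l1, a cysteine protease inhibitor of neutrophils, read 0.74, 2.06 and 1.46 at 3 h and 3.36, 3.18 and 5.72 at 72 h, higher by 2.66 and not called slide-blocked (2.47). Mmp9, the gelatinase of neutrophils and macrophages, rose by 2.77 and was called in both fits. Ngp, a granule protein of immature neutrophils, was above background on 1 of the 72 h arrays and at least 3.82-fold lower with overlapping groups, a call lost without 3 h replicate 2 (-2.82), 3 h replicate 3 (-1.99), 72 h replicate 1 (-1.68) or 72 h replicate 2 (-2.69), and myeloperoxidase Mpo was higher by 2.32 and not called slide-blocked (1.84). The collagenase Mmp8 was 6.99 above sham at 3 h, 5.21 at 72 h and not called between them. In tissue RNA fewer cells of a type and less RNA per cell cannot be told apart. With slide as a block Ngp was at -1.64 and not called. Ngp (-0.78) and Mpo (0.91) were not called under normexp.

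The cytokine families named for IL-6, IL-1 and TNF had members on both sides. Il6 itself read -4.35, -5.00 and -4.62 in sham, 2.89, 3.12 and 2.85 at 3 h and 3.07, 2.18 and 2.37 at 72 h. The times overlapped and their difference of -0.41 ± 0.45 was not called (1.30 slide-blocked), while against sham Il6 was 7.61 at 3 h and 7.20 at 72 h. Its receptor chain Il6ra was higher by 1.41 (adjusted p = 0.000143), and the shared signalling chain Il6st (0.82) and the transcription factor Stat3 (-0.65) were not called. Of the 14 genes of the family 3 were higher and 2 lower (median 0.16, slide-blocked 0.64). The receptors Lifr and Il11ra1 were higher by 1.23 and 1.21, the latter not called without 72 h replicate 1 (0.98). Lif and the feedback inhibitor Socs3 were lower, Lif at least 2.16-fold with 1 of 3 arrays above background at 72 h and Socs3 by a log2 difference of -1.22. The Lif call was lost without 3 h replicate 2 (-1.03), 3 h replicate 3 (-1.30), 72 h replicate 2 (-1.03) or 72 h replicate 3 (-1.11), and the Socs3 call without 3 h replicate 2 (-1.05), 3 h replicate 3 (-1.14), 72 h replicate 1 (-1.31), 72 h replicate 2 (-1.07) or 72 h replicate 3 (-1.27). Il6ra alone of the 5 called genes was called with slide as a block. The Il6ra call rests on the brightest probe, since the mean of all its probes gave 0.63 and no call, and Lifr fell short of 2-fold in that fit (0.97). Socs3 was not called under quantile normalization (-0.79). Slide-blocked, Lif differed by -0.56. Lif (-0.47) and Lifr (0.97) were not called under normexp.

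Among 14 IL-1 family genes 2 were lower and 0 higher, around a median of 0.26 (0.34 slide-blocked) that turned negative without 72 h replicate 3. Il1b read 4.87, 6.04 and 5.36 at 3 h and 5.91, 5.62 and 6.59 at 72 h, overlapped and was not called (0.62). The lower members were the antagonist Il1rn at -1.90 and the IL-33 receptor Il1rl1 at -1.81, and neither was called with slide as a block (-1.81 and -0.72). The Il1rl1 call was lost without 3 h replicate 1 (-1.48), and that of Il1rn without 3 h replicate 2 (-1.86), 3 h replicate 3 (-1.72), 72 h replicate 1 (-1.52) or 72 h replicate 2 (-1.83). Among 19 TNF superfamily genes 2 were higher and 2 lower (median -0.15, which turned to 0.19 slide-blocked). Tnf read -0.09, 0.38 and 0.52 at 3 h and -0.22, -0.30 and 1.21 at 72 h, overlapped and differed by -0.04. Tnfrsf12a, the TWEAK receptor, fell by 1.90 and Tnfsf13b, the B cell factor BAFF, rose by 1.46, both called in both fits. With the mean of all its probes Tnfsf13b differed by 0.92, short of 2-fold. Tnfsf13b (0.71) was not called under normexp. The remaining called members, Tnfsf14 (1.34) and Tnfrsf21 (-1.11), were called neither under normexp nor with slide as a block.

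The axis of IL-17, IL-22 and IL-23, which guards mucosal barriers, had 6 lower and 2 higher of 12 genes (median -0.94, -0.70 with dim genes at their bound, -0.87 slide-blocked). Next to Il22, Il12b, the shared subunit of IL-12 and IL-23, was lower by a log2 difference of -1.70, lost without 3 h replicate 3 (-1.5), and Il17f was above background on 1 of the 72 h arrays and at least 3.48-fold lower with overlapping groups, lost without 3 h replicate 2 (-1.77), 3 h replicate 3 (-1.78), 72 h replicate 2 (-1.84) or 72 h replicate 3 (-1.89). Il17a went the other way, with -4.37, -3.29 and -2.54 at 3 h and -1.31, -1.0 and -1.71 at 72 h, a difference of 2.06 (adjusted p = 0.0421) that was not called without 3 h replicate 1 (1.57), 3 h replicate 2 (2.11), 72 h replicate 1 (2.04), 72 h replicate 2 (1.89) or 72 h replicate 3 (2.25). Only 3 of the 8 calls held with any 1 array left out, and 1 held slide-blocked. Il17a and Il17f differed slide-blocked by 4.31 and -0.90, neither called. Il17f (-0.73), Il17a (0.66) and Il12b (-0.75) were not called under normexp.

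Type I interferon stimulated genes were at 72 h in part below the 3 h level and in part below sham. Of 18 genes 13 fell and 0 rose, with a median of -1.88 (-1.70 slide-blocked), 1 was above sham at 3 h, and 9 were below sham at 72 h. The list median against sham was -0.30, -0.25 and 0.51 on the sham arrays, 1.30, -0.25 and 0.92 on the 3 h arrays and -1.25, -1.80 and -0.79 on the 72 h arrays, and 3 h replicate 2 lay within the sham range. Ifit1, which binds foreign RNA caps, read 4.18, 2.51 and 3.85 at 3 h and -0.30, -0.92 and 0.14 at 72 h. Mx2, an antiviral GTPase, differed by -2.95 ± 0.32 and was the member also called slide-blocked. Usp18, which removes ISG15, differed by -3.21 (slide-blocked -2.93). Among 19 genes of interferon gamma and its targets 2 were lower and 0 higher, a share of 10.5% that was near that of all genes. The median was -0.54 (-0.38 with dim genes at their bound, slide-blocked -0.65). The lower genes were the chemokine Cxcl10 at -2.0 and Gbp3 at -1.0 with overlapping groups, neither called with slide as a block. The Gbp3 call was lost without 3 h replicate 1 (-0.85), 3 h replicate 3 (-0.90), 72 h replicate 1 (-0.91) or 72 h replicate 2 (-0.77). Ifng was above background on 0 sham, 1 of the 3 h and 2 of the 72 h arrays and was not called. The mean of all Cxcl10 probes gave -1.18 and no call. Gbp3 (-0.87) was not called under normexp.

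Chemokines of the CC and CX3C families and their receptors had calls in both directions. Among 25 CC and CX3C genes 8 were higher and 5 lower (median 0.28, slide-blocked 0.73), and 10 of the 13 calls held with any 1 array left out. Ccr2, the receptor that draws monocytes out of the marrow, read -2.28, -2.37 and -2.17 in sham, -1.73, -1.72 and -2.17 at 3 h and 1.61, 1.09 and 0.62 at 72 h. The 72 h arrays lay above all others, a difference of 2.98 ± 0.27 (limma adjusted p = 9.16e-05, slide-blocked 2.25). Cx3cr1, the fractalkine receptor of monocytes and resident macrophages, was -2.79 against sham at 3 h and 0.58 at 72 h, and differed by 3.37 (slide-blocked 3.45). The monocyte chemokine Ccl8 was higher by 1.99. Ccl17, a CCR4 ligand of dendritic cells, fell by 3.42, and Ccl2, the main CCR2 ligand, by 1.42, from 5.84 above sham at 3 h to 4.41 at 72 h. The CCR4 ligand Ccl22 was called lower but was above background on 2 of the 3 h and 0 of the 72 h arrays, so no size is given. The calls of Ccl8 (1.77), Ccl17 (-3.55), Ccl2 (-1.06) and Ccl22 were lost slide-blocked, and that of Ccl2 also under quantile normalization (-1.04). Ccl11, also lower, differed by -1.40 and was called slide-blocked (-1.38) and with any 1 array left out. Of 12 lymphoid and homeostatic chemokine genes only Cxcl12 was called, higher by 1.59 (list median 0.50, slide-blocked 0.44 with 0 calls). Ccl22 was not called under normexp.

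Macrophage genes were higher in most members, 3 of which, the C1q chains, are also complement genes. Of 17 genes 12 were higher and 0 lower, with a median of 1.48 (1.42 with dim genes at their bound, 1.56 slide-blocked), and 11 of the 12 calls held with any 1 array left out and 7 slide-blocked. The list median against sham was 0.01, 0.06 and 0.45 on the 3 h arrays and 1.93, 1.66 and 1.49 on the 72 h arrays. Adgre1, which encodes a surface receptor of macrophages, read 0.60, 0.72 and 1.30 at 3 h and 2.85, 3.40 and 3.49 at 72 h without overlap, a difference of 2.38 ± 0.21 (limma adjusted p = 8.91e-05). The high affinity IgG receptor Fcgr1 rose by 2.44, the M-CSF receptor Csf1r by 2.07 and the lysosomal Cd68 by 1.99, all called in both fits. The scavenger receptors Marco (2.67) and Cd163 (2.06) were higher and lost their calls slide-blocked, at 2.97 and 1.59.

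Genes of macrophage activation and repair were less uniform, with 7 of 16 higher and 2 lower (median 0.73, slide-blocked 0.92). Beside Trem2, Mmp12, the macrophage elastase, read -4.10, -4.27 and -4.19 at 3 h and -0.64, -0.12 and -0.83 at 72 h and rose by 3.66. Ctsk, a collagen-degrading cathepsin, rose by 3.33, the lectin Clec10a by 3.09, and the matrix cytokine Spp1 by 2.43, all lost with slide as a block (Spp1 at 3.89) and Spp1 also without 3 h replicate 2 (2.39), 3 h replicate 3 (1.84) or 72 h replicate 1 (2.10). Retnla, a secreted protein of alternatively activated macrophages, moved against the list, with 3.06, 2.74 and 2.18 in sham, 1.31, 1.78 and 2.03 at 3 h and -1.19, -0.28 and -3.02 at 72 h, a difference of -3.21 (adjusted p = 0.00275, slide-blocked -2.75, not called). Il10, an anti-inflammatory cytokine, was above background on 1 of the 72 h arrays and at least 3.00-fold lower, a call lost without 3 h replicate 1 (-2.11), 3 h replicate 2 (-2.25), 3 h replicate 3 (-1.54), 72 h replicate 1 (-1.44) or 72 h replicate 2 (-1.97). Among 7 colony stimulating factors and receptors 2 were higher and 2 lower (median 0.14, slide-blocked 0.03, below 0 without 72 h replicate 1). Csf1r and Csf2rb (1.09) were receptors and higher, while the ligands Csf2 (-1.80) and Csf3 (-1.57) were lower, and apart from Csf1r these calls were lost slide-blocked, where the difference was 1.51 for Csf2rb, -0.21 for Csf2 and -0.73 for Csf3. They were also lost for Csf2rb without 3 h replicate 1 (0.87) or 72 h replicate 1 (0.96), for Csf2 without 3 h replicate 2 (-1.62), 3 h replicate 3 (-1.73) or 72 h replicate 3 (-1.61) and for Csf3 without 3 h replicate 2 (-1.64), 3 h replicate 3 (-1.18), 72 h replicate 1 (-1.53), 72 h replicate 2 (-1.55) or 72 h replicate 3 (-1.64). With the mean of all its probes Csf2rb was not called (0.70). Csf2 (-0.75) and Il10 (-0.63) were not called under normexp.

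Adhesion molecules of leukocytes had 6 higher and 0 lower of 14 (median 0.71, slide-blocked 0.83 with 0 calls). The integrin chains Itgb2 (1.58) and Itgal (1.32), the endothelial Icam2 (1.41) and the selectin ligand Selplg (1.33) held with any 1 array left out, but the mean of all probes gave 0.56 for Itgal and 0.53 for Icam2, neither called. Lymphocyte lists gave no calls. The 22 T and NK cell genes had a median of -0.08 (-0.07 slide-blocked), which turned positive under the 75th percentile over probes above background, without 3 h replicate 3 and without 72 h replicate 1, and Cd8b1 had the largest difference at 1.19. The 14 B and plasma cell genes had a median of 0.28 (0.20 with dim genes at their bound, 0.18 slide-blocked) that turned negative under normexp and without 3 h replicate 1 or 72 h replicate 3. They varied widely between arrays, with list medians against sham of -2.86, -0.83 and 0.20 at 3 h and -1.91, -0.84 and -0.52 at 72 h. Ptprc, the pan-leukocyte CD45, differed by 0.99 and was not called. Of 15 dendritic cell and MHC class II genes 2 were higher (median 0.51, 0.34 with dim genes at their bound, slide-blocked 0.39), H2-DMa by 1.03, lost without 3 h replicate 1 (0.79), and Xcr1, which was above background on 0 of the 3 h and 2 of the 72 h arrays, and neither was called slide-blocked. Of 10 mast cell genes the tryptase Tpsab1 was higher, at least 3.28-fold (median 0.62, 0.46 at the bound, slide-blocked 0.84 with 0 calls). Itgal (0.85), Xcr1, H2-DMa (0.89) and Tpsab1 (0.29) were not called under normexp.

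Complement, the cascade of opsonins and lytic proteins, was higher in most members. Of 19 genes 14 were higher and 0 lower (median 1.49, 1.42 with dim genes at their bound, 1.47 slide-blocked), and 14 were above sham at 72 h against 2 at 3 h. C3, the central component, read 5.24, 5.20 and 5.42 in sham, 3.92, 4.82 and 5.25 at 3 h and 7.22, 7.06 and 7.32 at 72 h. The 72 h arrays lay above the others, a difference of 2.54 ± 0.29 (limma adjusted p = 0.000261). C3ar1, the C3a receptor, rose by 2.39, and the chains C1qa, C1qb and C1qc by 1.30, 1.42 and 1.76. Properdin, Cfp, was higher by 2.08 and not called slide-blocked. Of the 14 calls 12 held with any 1 array left out and 7 slide-blocked.

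Eicosanoid genes, which make and sense lipid mediators, had calls in 1 direction only. Of 18 genes of the prostaglandin and leukotriene pathway 7 were higher and 0 lower (median 0.75, slide-blocked 0.95, normexp 0.30). Tbxas1, thromboxane synthase, read -0.99, -1.0 and -0.95 in sham, -1.95, -2.04 and -2.18 at 3 h and 0.82, 0.86 and 0.86 at 72 h, so that the 3 groups did not overlap and sham lay between the times. Its difference was 2.91 ± 0.11 (limma adjusted p = 1.07e-06). Alox5ap, which presents arachidonate to 5-lipoxygenase, rose by 1.65 and Alox5 by 1.38, both called slide-blocked. The prostaglandin E receptor Ptger3 (2.56), prostacyclin synthase Ptgis (2.46) and leukotriene C4 synthase Ltc4s (1.85) were higher and lost their calls slide-blocked, at 0.88, 1.72 and 1.99. With the mean of all its probes Tbxas1 differed by 0.90 and was not called, so the size of its difference rests on the brightest probe.

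Calls among coagulation and fibrinolysis genes (21.1%) were all higher. Of 19 genes 4 were higher and 0 lower (median 0.13, 0.02 with dim genes at their bound), and the slide-blocked median was 0.86. F13a1, the transglutaminase subunit that crosslinks fibrin, read 1.04, 1.02 and 1.08 at 3 h and 3.62, 2.55 and 3.37 at 72 h without overlap and rose by 2.13, the protease inhibitor Serpine2 by 1.87, and F7 was at least 4.85-fold higher with 0 of 3 arrays above background at 3 h, all called in both fits. The fourth call, the tissue factor inhibitor Tfpi at 1.19, was lost without 72 h replicate 1 (0.88) and slide-blocked (1.30), and without that array the list median fell below 0. With the mean of all its probes Tfpi was not called (0.70). F7 (0.50) was not called under normexp.

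The acute phase and antimicrobial list had calls in both directions, with 7 higher and 3 lower of 19 (median 0.02, which turned negative without 3 h replicate 1 and with slide as a random block, slide-blocked 0.27). Haptoglobin, Hp, was among the higher, at 2.91, 4.07 and 3.87 on the 3 h arrays and 7.64, 6.61 and 6.43 on the 72 h arrays, a rise of 3.28 (slide-blocked 3.25, not called). The endotoxin-binding Lbp rose by 1.94 and Orm1 by at least 14.4-fold with 2 of 3 arrays above background at 3 h. Lower were the hydrogen peroxide-forming Duox2 at -1.75 and its maturation factor Duoxa2 at -1.62, beside Sprr1a. The Sprr1a call was the 1 that held with slide as a block.

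**Figure D2:**
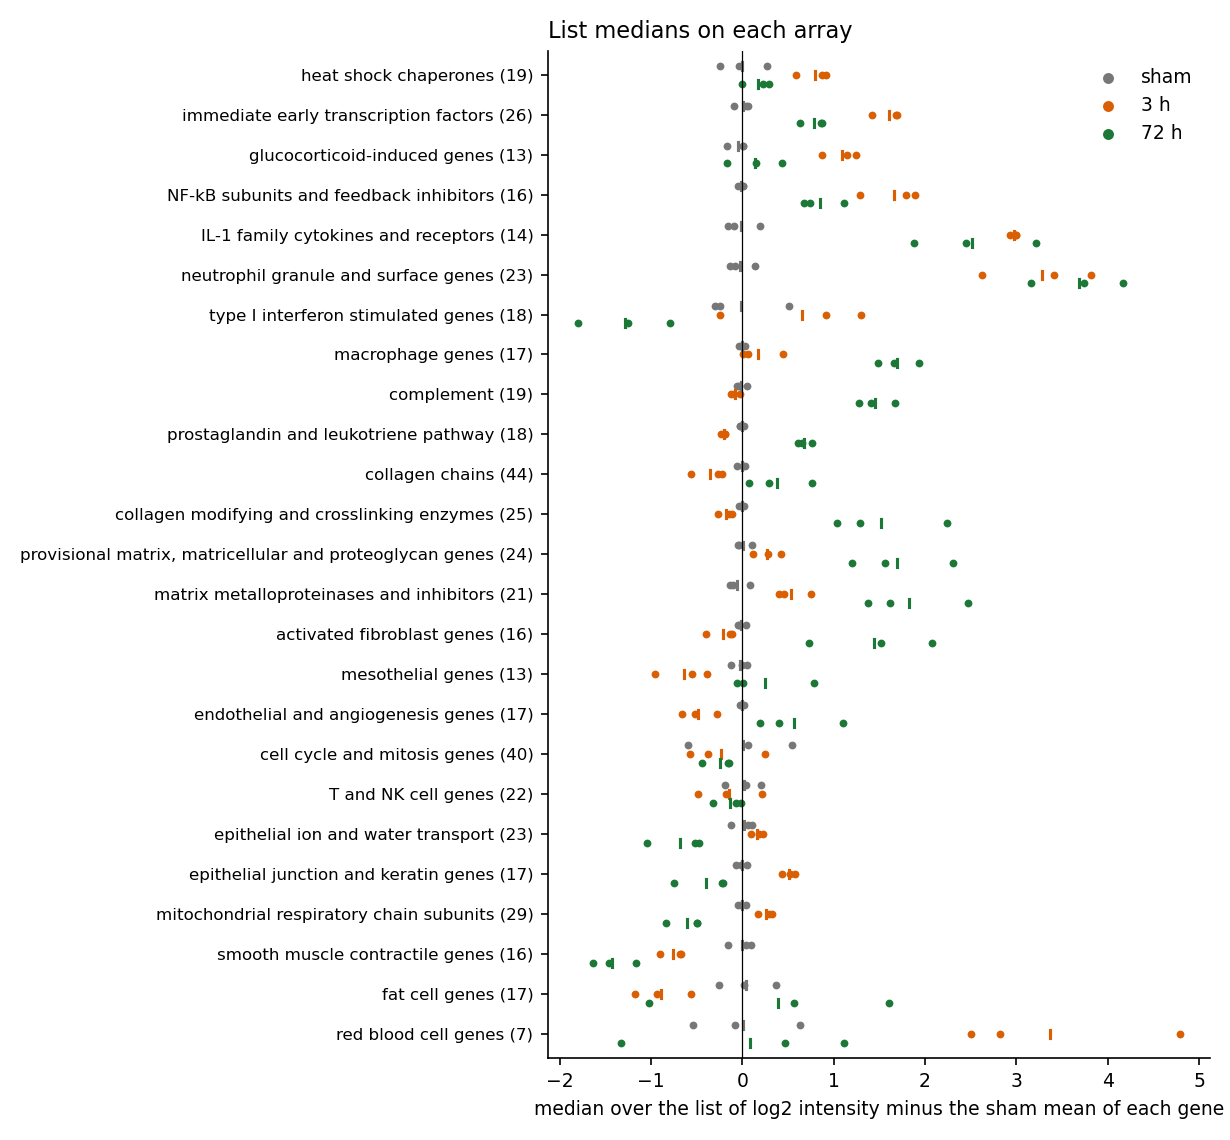
For 25 gene lists (number of genes in brackets), points show on each sham, 3 h and 72 h array the median over the list of log2 intensity minus each gene's sham mean (x axis), and ticks show group means. Macrophage genes lie at 0.01, 0.06 and 0.45 on the 3 h arrays and 1.93, 1.66 and 1.49 on the 72 h arrays, and complement genes at -0.09, -0.12 and -0.02 and 1.67, 1.41 and 1.28, while the T and NK cell list, whose direction turned under another scaling, overlaps between the groups.

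Collagens, the fibres of scar and adhesion, were higher in many chains. Of 44 collagen chains 19 were higher and 2 lower (median 0.84, 0.72 with dim genes at their bound, 0.72 slide-blocked, 0.16 under normexp). Col1a1, the main chain of type I collagen, read 3.95, 3.88 and 3.96 in sham, 3.30, 3.17 and 2.96 at 3 h and 7.58, 6.95 and 6.27 at 72 h. All 72 h arrays lay above sham, all 3 h arrays below it, and the difference was 3.79 ± 0.26 (limma adjusted p = 3.35e-05, slide-blocked 3.65). Col1a2 and Col3a1 rose by 2.76 and 2.70, and the type V chains Col5a1, Col5a2 and Col5a3, which start fibril assembly, by 3.18, 3.22 and 3.63. Col24a1 was at least 7.32-fold higher with 0 of 3 arrays above background at 3 h, and the basement membrane chains Col4a1 and Col4a2 rose by 1.29 and 1.23, not called slide-blocked (1.37 and 1.19). The cartilage chain Col2a1 was higher by 3.78 and not called slide-blocked. Against the list, Col13a1, a transmembrane collagen, was lower by a log2 difference of -1.12 and Col4a3 was below background at both times, and neither was called slide-blocked. The Col13a1 call was lost without 72 h replicate 1 (-0.95). Of the 21 calls 17 held with any 1 array left out and 9 slide-blocked. Col24a1 (0.76), Col4a3 and Col13a1 (-0.76) were not called under normexp.

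Collagen modifying and crosslinking enzymes were higher in 17 of 25 genes and lower in 0 (median 1.88, 1.82 with dim genes at their bound, 1.69 slide-blocked), and 17 of the 17 calls held with any 1 array left out. The list median against sham was -0.11, -0.27 and -0.15 on the 3 h arrays and 2.24, 1.29 and 1.04 on the 72 h arrays, highest on 72 h replicate 1. Besides Lox, the collagen chaperone Serpinh1 (HSP47) read 2.58, 2.36 and 2.62 at 3 h and 5.90, 4.84 and 4.65 at 72 h, and rose by 2.61 ± 0.28 (limma adjusted p = 0.000190). The prolyl isomerase Fkbp10 rose by 3.08, the crosslinking oxidase Loxl1 by 2.77 and the prolyl hydroxylase P4ha2 by 2.19. The procollagen proteinases Bmp1 (2.65) and Adamts2 (2.59) and the lysyl hydroxylase Plod2 (2.38) were higher and lost their calls slide-blocked.

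Provisional matrix, matricellular and proteoglycan genes had 14 of 24 higher and 0 lower (median 1.36, slide-blocked 1.29). Lum, the collagen-spacing lumican, read 1.5, 1.87 and 1.51 at 3 h and 4.41, 4.03 and 3.41 at 72 h and rose by 2.32 ± 0.24 (slide-blocked 1.95, called). Fn1, the fibronectin on which cells migrate, read 5.18, 5.4 and 5.77 at 3 h and 7.12, 6.79 and 6.56 at 72 h, higher by 1.37 (adjusted p = 0.000484) and not called slide-blocked (1.46). Thbs2, an angiogenesis inhibitor, was higher by 3.19, the microfibril gene Fbn1 by 2.45, the hyaluronan synthase Has2 by 2.24 and the CCN protein Wisp2 by at least 9.17-fold with 0 of 3 arrays above background at 3 h, all lost slide-blocked. Vcan, the hyaluronan-binding versican, rose by 2.08 and elastin Eln by 1.80, also lost slide-blocked (2.13 and 1.32), while the rises of decorin Dcn (1.34) and Sparc (1.59) were called in both fits. Of the 14 calls 11 held with any 1 array left out and 4 slide-blocked.

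Metalloproteinases and their inhibitors were higher in 11 of 21 genes and lower in 2 (median 1.29, slide-blocked 1.44, normexp 0.50). Timp1, the broad inhibitor, read -0.61, -0.21 and 0.64 in sham, 2.66, 3.33 and 3.38 at 3 h and 6.68, 5.77 and 6.17 at 72 h, so that the 3 groups did not overlap. It rose by 3.09 (adjusted p = 0.000258) and was not called slide-blocked (2.52). Mmp11, a stromal protease, was -2.39 against sham at 3 h and 0.68 at 72 h and rose by 3.07, and the gelatinase Mmp2 rose by 1.95 and the membrane-bound Mmp14 by 1.65. Adam12 was at least 4.62-fold higher, with 1 of 3 arrays above background at 3 h. Mmp13, a collagenase, and Adamts4, an aggrecanase, went against the list at -1.25 and -1.42, lost slide-blocked, and Adamts4 (slide-blocked -0.87) was also not called without 3 h replicate 2 (-1.34) or 72 h replicate 3 (-1.23). The Adam12 call was lost slide-blocked (2.47). Adam12 (0.50) and Mmp13 (-0.97) were not called under normexp.

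Of 21 genes of TGF-beta ligands, receptors and signalling 5 were higher and 0 lower (median 0.29, slide-blocked 0.37). Tgfb1 read -1.22, -0.80 and -0.58 at 3 h and 0.02, -0.12 and 0.08 at 72 h and its difference of 0.86 was below the 2-fold threshold, and the signal transducer Smad2 differed by -0.52 and was not called. Inhba, the activin A subunit, read 0.17, 0.20 and -0.40 at 3 h and 2.60, 2.0 and 1.97 at 72 h, a rise of 2.20 ± 0.29, and the matrix protein Tgfbi rose by 1.74, both called in both fits. The latent TGF-beta binding protein Ltbp2 was higher by 3.11, Tgfb3 by 1.55 and the co-receptor Eng by 1.1, lost slide-blocked, and Eng was also lost without 72 h replicate 1 (0.81). Eng (0.89) was not called under normexp.

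Activated fibroblast genes were higher in 10 of 16 and lower in 0 (median 1.49, 1.40 with dim genes at their bound, 1.42 slide-blocked). The list median against sham was -0.11, -0.13 and -0.40 on the 3 h arrays and 2.07, 1.52 and 0.74 on the 72 h arrays. Acta2, the alpha smooth muscle actin of myofibroblasts and muscle, was not called, with 7.23, 7.26 and 7.10 in sham, 5.97, 6.39 and 6.28 at 3 h and 6.09, 6.18 and 6.32 at 72 h, overlapping values and a difference of -0.02. Pdpn, a glycoprotein of mesothelium and fibroblasts, was 1.73 above sham at 3 h, 2.58 at 72 h and not called between them (0.85). The calcium-binding S100a4 was higher by 2.25 and the BMP antagonist Grem1 by 2.10, lost slide-blocked, as were the calls of Pdgfrb (1.45) and Pdgfra (1.36), while vimentin Vim rose by 1.79 (slide-blocked 1.65, called). Of the 10 calls 9 held with any 1 array left out and 2 slide-blocked.

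Mesothelial genes, which mark the cells lining the serosa, were in part below sham at 3 h. Of 13 genes 5 were below sham at 3 h and 1 at 72 h, and between the times 7 were higher and 2 lower (median 1.29, 1.18 with dim genes at their bound, 1.42 slide-blocked). The list median against sham was -0.96, -0.39 and -0.55 on the 3 h arrays. On the 72 h arrays it was 0.79, 0.01 and -0.06, so that 72 h replicate 1 stood apart. The mean log2 signal of fat cell genes had the same order there (1.97, 1.24 and -1.26), and its part was not tested. Rspo1 read -0.78, -0.80 and -0.97 in sham, -4.23, -3.29 and -3.88 at 3 h and 1.51, 0.49 and -0.09 at 72 h. Sham lay between the times on every array, and the difference was 4.44 ± 0.39 (limma adjusted p = 7.87e-05, slide-blocked 3.81). The uroplakin Upk3b was above background on 3 sham, 0 of the 3 h and 3 of the 72 h arrays and at least 4.11-fold higher at 72 h, and Lrrn4, with the same counts, at least 6.65-fold. Wt1, the transcription factor that marks mesothelium, read -2.5, -2.32 and -2.68 in sham, -3.46, -2.12 and -1.86 at 3 h and 3.03, 1.47 and 1.20 at 72 h, where only the 72 h arrays stood out. Msln, mesothelin, was above background on 2 of the 3 h arrays and was not called between the times. Calb2 (at least 2.07-fold lower, 1 of 3 arrays above background at 72 h) and Krt19 (-1.01) went against the list, and neither call held slide-blocked. Calb2 was not called without 3 h replicate 1 (-1.25), 3 h replicate 2 (-1.06), 3 h replicate 3 (-1.14), 72 h replicate 1 (-0.80) or 72 h replicate 2 (-1.04), and Krt19 not without 3 h replicate 1 (-0.96) or 72 h replicate 1 (-0.83). Of the 9 calls 6 held with any 1 array left out and 2 slide-blocked. The Lrrn4 call was lost slide-blocked (4.40), Krt19 fell short of 2-fold under quantile normalization (-0.54), and Calb2 with the mean of all its probes (-0.69). Under normexp the list median was 0.50. With slide as a block Calb2 read -2.05. Lrrn4 (0.77), Upk3b (0.50), Calb2 (-0.45) and Krt19 (-0.95) were not called under normexp.

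Endothelial and angiogenesis genes were higher in 9 of 17 and lower in 0 (median 1.27, slide-blocked 1.08, normexp 0.74), and 7 of the 9 calls held with any 1 array left out and 2 slide-blocked. Apln, a peptide of growing vessels, rose by 1.61. The apelin receptor Aplnr read -3.61, -4.16 and -4.33 at 3 h and 0.57, -0.83 and -1.65 at 72 h, higher by 3.40 (adjusted p = 0.000552) but not slide-blocked (3.17). Figf, which encodes VEGF-D, was higher by 3.51 and the receptor Tie1 by 1.68, also lost slide-blocked. Tie1 (0.94) was not called under normexp.

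**Figure D3:**
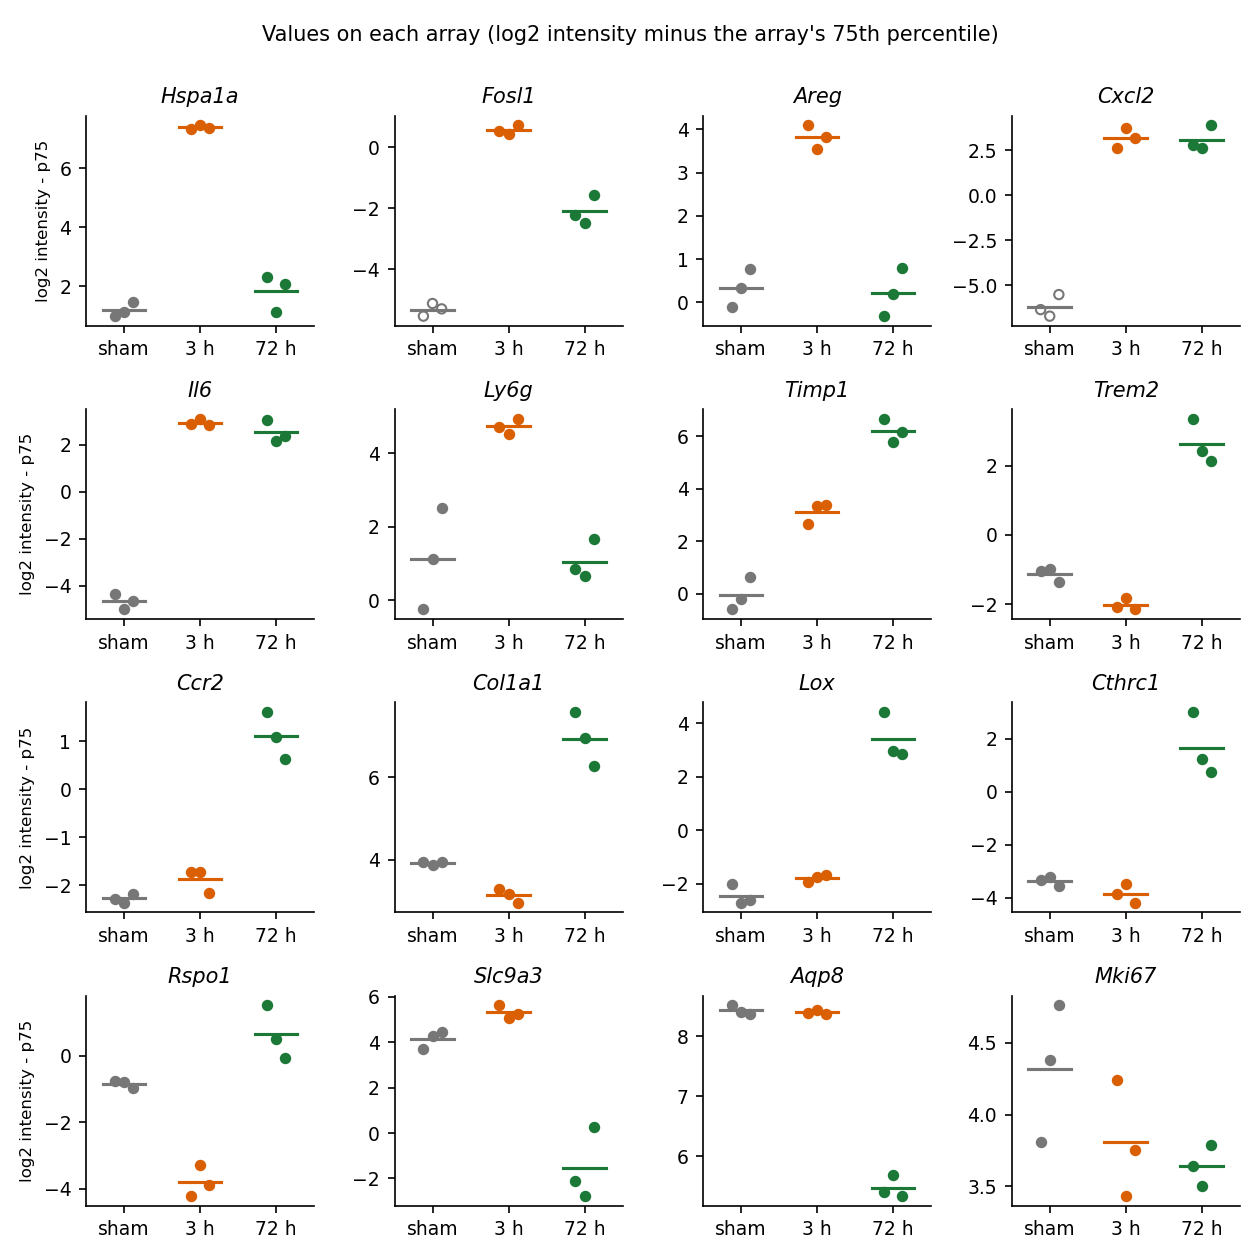
Each panel shows 1 gene on the 3 sham, 3 h and 72 h arrays (log2 intensity minus the array's 75th percentile on the y axis), with a line at the group mean and open points where no array of the group was well above background. Hspa1a stands out at 3 h (7.35, 7.46 and 7.37), Col1a1 at 72 h (7.58, 6.95 and 6.27), Il6 is high at both times (7.61 and 7.20 against sham), and Mki67 overlaps between the times.

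Growth factors and receptors of repair had calls in both directions. Of 17 genes 4 were higher and 6 lower (median -0.32, slide-blocked -0.17). Areg, amphiregulin, read -0.12, 0.33 and 0.78 in sham, 4.09, 3.55 and 3.81 at 3 h and -0.32, 0.19 and 0.80 at 72 h. The 72 h arrays overlapped the sham arrays, and the difference was -3.59 ± 0.36 (limma adjusted p = 0.000148, slide-blocked -2.71). The EGF receptor ligands Btc and Hbegf fell by 2.58 and 1.98 (slide-blocked -1.97 and -1.95, both called), Tgfa by 1.69 and not slide-blocked (-1.46). Igf1, insulin-like growth factor, was higher by 2.46, Hgf by 1.51 and Pdgfb by 1.35, and all 3 calls were lost slide-blocked (2.13, 2.06 and 1.20). The mean of all Hgf probes gave 0.95, short of 2-fold. Tgfa (-0.93) and Hgf (0.64) were not called under normexp.

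Proliferation genes did not separate the times. Of 40 cell cycle and mitosis genes 0 were higher and 0 lower with limma, around a median of 0.01 (0.10 slide-blocked) whose sign turned with the mean of all probes and in fits without 3 h replicate 2, 3 h replicate 3 or 72 h replicate 3. Mki67, the proliferation marker, read 3.81, 4.38 and 4.76 in sham, 4.24, 3.43 and 3.75 at 3 h and 3.64, 3.50 and 3.79 at 72 h, overlapped and differed by -0.16. The ribonucleotide reductase subunit Rrm2 had the largest difference, at -1.05. List medians against sham ranged more widely among the sham arrays (-0.60, 0.07 and 0.55) than among the 3 h (0.25, -0.57 and -0.37) and 72 h arrays (-0.14, -0.44 and -0.16).

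Transport genes of the absorptive epithelium had calls that were nearly all lower. Of 23 genes of ion and water transport 10 fell and 1 rose, with a median of -0.83 (-0.89 slide-blocked), and 0 were below sham at 3 h and 9 at 72 h. Aqp8, the water channel of the colonic surface, read 8.52, 8.41 and 8.37 in sham, 8.39, 8.45 and 8.38 at 3 h and 5.41, 5.69 and 5.34 at 72 h. Sham and 3 h were alike, all 72 h arrays lay lower, and the difference was -2.92 ± 0.16 (limma adjusted p = 1.57e-05, slide-blocked -2.35). Car4, a surface carbonic anhydrase, differed by -3.32 and was called in both fits, as were Slc9a3 and Aqp8 and no other member. Scnn1g, a subunit of the epithelial sodium channel, was 3.13 above sham at 3 h, above background on 2 of 3 arrays at 72 h and at least 12.1-fold lower there, and the chloride channel Cftr fell by 1.70. Aqp4, a basolateral water channel, was the member higher, by 1.05, a call lost without 3 h replicate 2 (1.04), 3 h replicate 3 (0.80), 72 h replicate 1 (1.14), 72 h replicate 2 (0.90) or 72 h replicate 3 (1.11). Of the 11 calls 8 held with any 1 array left out. With slide as a block Aqp4 and Scnn1g were at 1.89 and -2.23. The Aqp4 call was also lost with the mean of all its probes (0.12). Aqp4 (0.90) was not called under normexp.

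The other epithelial lists had fewer calls. Junction and keratin genes were lower in 5 of 17 (median -0.88, slide-blocked -0.58), among them Krt18 (-1.47) and Krt20 (-1.38). Under quantile normalization the calls of Krt18 and Krt20 were lost, at -0.98 and -0.91, and Krt20 was the member called slide-blocked. Goblet cell and mucus genes were lower in 3 of 16 (median -0.54, slide-blocked -0.35 with 0 calls), with Clca1 at -1.98 and the antimicrobial Ang4 at -1.71. The goblet cell median moved under quantile normalization and reached -0.12 across the alternatives. The crypt stem cell and Wnt target list had a median of 0.00 (-0.17 slide-blocked) whose sign turned in 7 of the alternatives, with 2 of 17 genes higher and 1 lower. Smoc2, a secreted crypt and stromal protein, read 1.47, 1.17 and 1.25 at 3 h and 3.13, 3.61 and 3.84 at 72 h, rose by 2.23 and was called in both fits, while Nkd1 was higher by 1.25 and Sox9 lower by a log2 difference of -1.01, lost without 3 h replicate 1 (-0.99), 3 h replicate 2 (-0.99), 72 h replicate 1 (-0.90) or 72 h replicate 3 (-0.98). Nkd1 and Sox9 were not called slide-blocked (0.46 and -0.92). Lgr5, the stem cell receptor, differed by 0.97 and was not called. Enteroendocrine genes were lower in 2 and higher in 1 of 16 (median -0.49, slide-blocked -0.55), with the peptide gene Nts at -1.61, Neurog3 at least 2.35-fold lower with 2 of 3 arrays above background at 72 h, and Pax4 at 1.11, not called without 72 h replicate 3 (0.92). Of these 3 none was called slide-blocked (-1.26, -0.94 and 0.81). Sox9 (-0.85), Neurog3 (-0.51) and Pax4 (0.00) were not called under normexp.

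Mitochondrial respiratory chain subunits had a median of -0.87 (-0.71 slide-blocked), with 5 of 29 lower, 0 higher and array medians against sham of 0.33, 0.29 and 0.17 at 3 h and -0.83, -0.50 and -0.50 at 72 h. The median difference between the times also moved under quantile normalization and reached -0.41 across the alternatives. The largest difference was that of Uqcrfs1, the iron-sulfur protein of complex III, at -1.25, and its call was lost under quantile normalization (-0.78) and slide-blocked (-0.85), as were the other 4. Of the 5 calls 2 held with any 1 array left out, and those of Cyc1, Ndufs1 and Uqcrc1 were lost without 72 h replicate 1. Among 26 cytochrome P450 enzymes 8 were lower and 4 higher (median -0.36, -0.23 with dim genes at their bound, slide-blocked -0.17). Cyp3a13, a drug-oxidising enzyme, fell by 2.29 (slide-blocked -1.86, called) and the fatty acid oxidase Cyp4f14 by 2.33 in the fit without slide. Besides Cyp1b1, the oxysterol hydroxylase Cyp7b1 was higher by 3.16, Cyp4v3 by 1.21, and Cyp2e1 by 3.18 with overlapping groups, all lost slide-blocked. The Cyp2e1 call was also lost without 3 h replicate 1 (2.81), 3 h replicate 3 (2.82), 72 h replicate 1 (2.03) or 72 h replicate 2 (3.21). Fatty acid and sterol synthesis had 2 of 19 lower and 1 higher (median -0.40, slide-blocked -0.13 with 0 calls), with the sterol synthase Hmgcs1 at -1.06, lost without 3 h replicate 2 (-1.0) or 72 h replicate 1 (-0.93), and the desaturase Scd2 at 1.15. Hmgcs1 was not called under quantile normalization (-0.66) or with the mean of all its probes (-0.44). Cyp4v3 (0.95) and Hmgcs1 (-0.97) were not called under normexp.

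The muscle coat and its nerves were looked at together. Smooth muscle contractile genes were lower in 3 of 16 and higher in 0 (median -0.63, slide-blocked -1.11), and 4 were below sham at 3 h and 11 at 72 h. Myh11, the smooth muscle myosin, read 4.41, 4.33 and 4.04 in sham, 3.22, 3.56 and 3.55 at 3 h and 1.53, 2.01 and 2.36 at 72 h, so that the 3 groups did not overlap, with a difference of -1.48 ± 0.24 (limma adjusted p = 0.00148). Calponin, Cnn1, fell by 1.26 and synemin, Synm, by 1.08, and both fell short of 2-fold under quantile normalization (-0.81 and -0.98), with Synm also not called without 72 h replicate 1 (-0.88). With slide as a block 6 members were called lower, these 3 among them. The list median also moved under quantile normalization and with the mean of all probes, and it reached -0.24 across the alternatives. Enteric neuron, glia and pacemaker genes had 2 of 22 higher and 0 lower around a median of 0.41, which turned to -0.34 slide-blocked and was 0.14 under normexp. The neuropeptides Gal and Vip were higher by 2.29 and 1.21, and neither was called slide-blocked (1.23 and 0.26). Synm (-0.94) was not called under normexp.

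Fat, blood and carry-over tissue differed between single arrays and are given beside the groups above, in whose differences their part was not tested. Of 17 fat cell genes 4 were higher and 1 lower (median 1.59, 0.58 with dim genes at their bound, slide-blocked 2.01 with 0 calls). Adipoq, adiponectin, read -0.01, 0.83 and -0.72 in sham, -6.78, -1.75 and -6.99 at 3 h and 3.99, 2.61 and -7.42 at 72 h, and was above background on 1 of the 3 h and 2 of the 72 h arrays, so that 72 h replicate 3 lay at the low end and the groups overlapped. The mean log2 signal of the list was 0.63, 1.02 and 0.25 in sham, -1.19, -0.21 and -1.30 at 3 h and 1.97, 1.24 and -1.26 at 72 h. The complement factor Cfd, which fat cells secrete, read 6.57, 4.77 and -7.45 on the 72 h arrays and was not called. Lpl, lipoprotein lipase, was higher by 2.84, the beta-adrenergic receptor Adrb3 by 3.37 and the adipokine Retn at least 18.5-fold, with overlapping groups and 2 of 3 arrays above background at 3 h, lost for Retn without 3 h replicate 1 (4.22), 3 h replicate 3 (3.58), 72 h replicate 1 (3.45) or 72 h replicate 2 (4.24), while Cidea, a lipid droplet protein, was lower by a log2 difference of -2.09. Without 72 h replicate 3, the 72 h array with the least fat signal, Adipoq was called, and 4458 genes were called in place of 4339.

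Red blood cell genes were high at 3 h. Of 7 genes 6 were lower at 72 h and 0 higher (median -3.41, -3.31 with dim genes at their bound), and 5 were above sham at 3 h and 0 at 72 h. Of the 6 calls 4 held with any 1 array left out. The Alas2 call was lost without 3 h replicate 1 (-2.66). The Slc4a1 call was lost whichever array was left out, and slide-blocked its difference turned to 0.17. Hbb-b1, a beta globin, read -2.51, -1.31 and -1.94 in sham, 3.26, 1.24 and 0.92 at 3 h and -0.72, -1.16 and -3.16 at 72 h. The 3 h arrays were highest, with 3 h replicate 1 above the others, and the difference of -3.48 ± 0.72 (limma adjusted p = 0.00519) was not called slide-blocked (-4.01), like the other 5 calls (list median -3.69). Globin probes share sequence, so Hbb-b1, Hbb-b2 (-3.44) and Hbb-bt (-3.43) may read the same RNA, as may alpha globin Hba-a1 (-3.31) and its copy. The mean log2 signal of the list was -2.32, -1.34 and -2.10 in sham, 1.74, 0.25 and -0.09 at 3 h and -1.25, -1.75 and -3.26 at 72 h. Pancreas, liver and skeletal muscle genes had 3 lower and 1 higher of 13 (median -0.35, -0.03 with dim genes at their bound, slide-blocked -0.37). Creatine kinase Ckm fell by 2.26 (slide-blocked -2.45, called). Serpina1a fell by 1.57 and albumin Alb was at least 2.44-fold higher with 1 of 3 arrays above background at 3 h, neither called slide-blocked (-0.84 and 1.14), while pancreatic lipase Pnlip was below background on all 9 arrays. Ckm (-0.95) and Alb (0.08) were not called under normexp.

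Clock genes, which follow the time of day of collection, were looked at because the groups may have been taken at different hours. In the PER and REV-ERB arm 1 of 12 genes was higher and 1 lower (median 0.26, slide-blocked 0.28 with 0 calls, and -0.02 with the mean of all probes). Dbp, a clock output factor, was -1.66 against sham at 3 h and -0.52 at 72 h, a difference of 1.14 that was called with all arrays and lost without 3 h replicate 1 (1.08), 3 h replicate 2 (0.91), 72 h replicate 1 (1.25) or 72 h replicate 2 (0.83). The deubiquitinase Usp2 was lower by a log2 difference of -1.07. In the BMAL1 arm 1 of 5 genes was lower (median -0.46, -0.05 with dim genes at their bound, slide-blocked -0.04), which was Npas2 with 1 of 3 arrays above background at 72 h and overlapping groups, lost without 3 h replicate 1 (-0.90), 3 h replicate 3 (-1.24), 72 h replicate 1 (-1.18) or 72 h replicate 2 (-0.82), and Arntl, which encodes BMAL1, differed by -0.46 and was not called. With slide as a block Npas2 was not called. Usp2 (-0.90) and Npas2 were not called under normexp.

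Promoters of the chaperones and of the NF-kB list were searched because several of their members fell together. The window ran from 250 bases before to 50 after each start in RefSeq's GRCm38.p6 annotation, on both strands, and a match describes letters, not binding. GAANNTTC, the core of the heat shock element, was in 10 of 15 chaperone genes with a promoter (66.7%), in 9.04% of all 27025 genes with a promoter, and in 6 of the 7 lower chaperones that had one. GGNNTTTCC, an NF-kB motif, was in 6 of 13 NF-kB list genes (46.2%) against 6.62% of all genes, in 5 of the 7 lower members, and in 3 of 8 CXC chemokine and receptor genes (37.5%). TGACGTCA, the cyclic AMP element, was in 3 of 21 immediate early genes (14.3%) against 2.03% and in 2 of the 8 lower members that had a promoter. CACGTG, the E-box of the clock, was in 4 of 11 genes of the PER and REV-ERB arm (36.4%) and 1 of 5 of the BMAL1 arm (20%) against 8.09%, and in 0 of the 1 lower member of each arm. In the cell cycle list CCAAT was in 26 of 33 genes (78.8%) against 41.1% and TTTGAA in 16 of 33 (48.5%) against 20.2%.

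Windows of lower members that hold a match are printed from GRCm38.p6 in lower case, each on the strand of its gene, with the motif in capitals, so that its place before or after the start can be read. Hspa1a lies at chr17:34972107-34972406 (-), Hsph1 at chr5:149636287-149636586 (-) and Hspb1 at chr5:135887669-135887968 (+) for the heat shock motif, and Tnip3 at chr6:65590148-65590447 (+) and Bcl3 at chr7:19822706-19823005 (-) for the NF-kB motif, with strands in brackets.
Hspa1a: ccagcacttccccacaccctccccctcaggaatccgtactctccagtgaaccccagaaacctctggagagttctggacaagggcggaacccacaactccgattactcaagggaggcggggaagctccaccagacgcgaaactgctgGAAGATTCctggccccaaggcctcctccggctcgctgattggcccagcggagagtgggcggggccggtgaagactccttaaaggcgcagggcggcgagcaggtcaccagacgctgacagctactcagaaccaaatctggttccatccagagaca
Hsph1: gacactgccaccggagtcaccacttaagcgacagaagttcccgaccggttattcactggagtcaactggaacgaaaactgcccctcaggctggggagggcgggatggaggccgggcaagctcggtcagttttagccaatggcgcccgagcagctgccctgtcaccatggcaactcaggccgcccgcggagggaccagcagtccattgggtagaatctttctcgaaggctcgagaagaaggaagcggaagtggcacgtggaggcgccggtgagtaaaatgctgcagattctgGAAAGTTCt
Hspb1: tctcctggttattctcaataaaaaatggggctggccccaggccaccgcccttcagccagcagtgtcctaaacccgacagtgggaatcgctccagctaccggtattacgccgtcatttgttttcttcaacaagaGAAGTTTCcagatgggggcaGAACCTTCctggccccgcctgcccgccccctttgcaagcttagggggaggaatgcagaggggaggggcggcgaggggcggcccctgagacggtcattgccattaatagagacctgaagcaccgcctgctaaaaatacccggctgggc
Tnip3: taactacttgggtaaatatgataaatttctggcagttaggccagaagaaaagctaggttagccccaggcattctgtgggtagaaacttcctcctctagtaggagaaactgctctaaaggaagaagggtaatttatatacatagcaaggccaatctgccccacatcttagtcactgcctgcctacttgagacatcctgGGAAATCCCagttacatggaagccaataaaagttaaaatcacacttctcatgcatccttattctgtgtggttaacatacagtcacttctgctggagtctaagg
Bcl3: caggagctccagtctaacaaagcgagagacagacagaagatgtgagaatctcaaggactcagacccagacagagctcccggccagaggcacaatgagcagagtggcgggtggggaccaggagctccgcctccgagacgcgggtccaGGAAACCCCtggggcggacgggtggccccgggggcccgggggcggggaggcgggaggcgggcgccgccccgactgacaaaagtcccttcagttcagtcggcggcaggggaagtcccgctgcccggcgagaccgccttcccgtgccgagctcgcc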

How the data were processed

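RNA of cecum tissue was hybridized, 3 arrays per group, to the Agilent design SurePrint G3 Mouse GE v2. The deposited scanner files hold, per spot, the intensity after the authors' Feature Extraction software had subtracted background, in linear units. The authors' own table, made in GeneSpring, holds log2 values shifted to the 75th percentile of each array with each probe's median over the 12 arrays then subtracted, and correlated at r = 0.999973 with the values computed here after the same centring. Of 62976 spots 3671 are controls and were left out. Spots with an outlier mark were removed, log2 was taken, replicate spots were averaged and the array's 75th percentile was subtracted. A model of 4 group means over all 12 arrays came from limma 3.58.1 under R 4.3.3 with the package data.table (1.17.8), p was adjusted by Benjamini-Hochberg over 56605 probes, and a gene took the probe with the highest mean. Motifs were searched with Python 3.11.15 and figures drawn with matplotlib 3.10.9. The fit was tested on simulated data.

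A probe counts as measured in a group where all 3 arrays are well above background. Where only 1 group is measured, "at least" gives the difference with the other group set, per array, to the higher of its own value and the lowest value well above background. Groups came from the treatment labels. The 12 h arrays served in the fit only. Gene lists have the names used in the text, and Gsta1, Ccl21b, C1s, Muc16 and Cox5b have no probe. Members and lists were chosen with earlier results of these data known. Named are the 15 largest measured rises and falls without overlap, the 5 largest bounds each way, up to 6 members of a list with the largest difference, members called against their list's median and genes the study names. Not all of these are described. Hspb1, C1qa, C1qb, C1qc, Col1a2, Col3a1, Col4a1, Col4a2, Plod2, P4ha2, Vcan, Eln, Dcn, Sparc, Mmp2, Mmp14, Vim, Pdgfrb and Pdgfra were chosen after their values were seen. Alternatives were other scalings, normexp background correction, the authors' table, a filter on dim probes, outlier spots kept, 6 arrays only, slide or replicate number as a block, other variance models and tests, the mean of a gene's probes and leaving out each array. Normexp added an offset of 50 to each intensity, which narrows the log2 differences of dim probes.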

Additional observations from a re-analysis of the deposited data

Results flagged for a closer look

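A difference between groups marked 12 of the named genes, which were called on opposite sides of sham at 3 h and 72 h and called in the direct contrast, which tested the difference with limma. Below sham at 3 h and above it at 72 h were Wisp2 (4.50 between the times, -2.33 and 2.16 against sham), Rspo1 (4.44, -2.95 and 1.49), Fam64a (4.43, -1.74 and 2.69) and Meox2 (3.96, -2.04 and 1.93). The same held for Col5a2 (3.22, -1.49 and 1.72), Tbxas1 (2.91, -1.08 and 1.83), Ptgis (2.46, -1.11 and 1.35) and Smoc2 (2.23, -1.11 and 1.11). Wisp2 and Meox2 were not measured on all 3 h arrays, so their fitted differences are not exact. The size for Tbxas1 rests on its brightest probe (0.90 with the mean of all its probes, not called). Above sham at 3 h and below it at 72 h were Ifit1 (-3.87, 1.44 and -2.44), Sprr1a (-3.92, 1.49 and -2.43), Gm32677 (-4.08, 1.88 and -2.20) and Slc26a1 (-4.11, 1.38 and -2.73). Both values against sham share the sham arrays. Groups of 3 were not tested for single outlying arrays, and causes were not tested.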

How the results depend on the processing

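Counts of calls between 72 h and 3 h (4339, with 2296 higher and 2043 lower) stayed within 1.5 times under quantile normalization (3838), a 75th percentile over probes above background (4129), the authors' table (4331), a filter on dim probes (3737), outlier spots kept (4330), only the 6 arrays (3850), slide as a random block (3721), eBayes with trend and robust (4368) and the mean of a gene's probes (3839). Counted as probes, 6359 were called (3404 higher, 2955 lower). Leaving out 1 array gave 3491 to 4458 calls, 1882 to 2418 higher and 1609 to 2188 lower. Normexp, with an offset of 50, gave 1570 (863 higher, 707 lower) and a median standard error 0.339 times that of the main fit. Slide as a fixed block gave 1152 (584 and 568). The part of the offset and of slide in these counts was not tested. An unpaired t-test gave 2681 (1344 and 1337). A paired Student's t-test gave 0 calls (0 higher, 0 lower) after Benjamini-Hochberg, against 3057 at an unadjusted p below 0.05 and a fold above 2. The paper names that test for 2 groups in general and no test for the arrays, and the pairs here rest on replicate numbers alone. No fold threshold gave 14289 (4370 and 9919) and limma treat 572 (365 and 207). Over all 4339 called genes the sign turned for 436 under normexp, 45 with slide as a fixed block and 12 after averaging probes; of the named genes these were Xcr1 under normexp, at -0.127, and Slc4a1 with slide as a fixed block, at 0.169, and the cause was not tested. Of 383 named genes 265 were called, and only these could be weaker, that is, lose the call. All 265 were weaker in the paired t-test, 178 with slide as a fixed block and 91 in the unpaired t-test. Under normexp 59 were weaker, under quantile normalization 37, after averaging probes 29 and with 1 array left out 15 to 39. List medians moved in 19 of 55 lists with slide as a fixed block and in 17 under quantile normalization, 10 after averaging probes, 9 under normexp and 0 to 7 with 1 array left out. Averaging probes moved the median of glucocorticoid-induced genes to -0.69, of smooth muscle contractile genes to -0.34 and of colony stimulating factors and receptors to 0.70; normexp moved that of collagen modifying and crosslinking enzymes to 1.24. With a replicate block 4266 genes were called (2248 higher, 2018 lower), and same-numbered 3 h and 72 h arrays correlated at 0.0194, -0.0275 and 0.130 after removal of group means, and not every array correlated best with its own number. Low signal leaves only a bound for 749 called genes and no measured side for 772 more.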
